A study of Mus musculus with 6 samples.

Results

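The urea cycle and the reactions that feed nitrogen into it were followed through 10 genes, taken by name from the deposited table of gene expression: Nags, Cps1, Slc25a15, Otc, Ass1, Asl, Arg1, Gls2, Glud1 and Hal. Each of the 10 symbols matched a single row among 54600 in the table, and all 10 passed the filter on low values. The table holds 6 RNA-seq libraries of mouse liver. Of these, 3 are labelled as carrying a knockout of HIF-2α limited to hepatocytes (KO) and 3 as wild type (WT), and every animal had eaten a high-fat diet for 16 weeks. The driver of the deletion, the alleles of the WT mice, and the sex and age of the animals are not given in the sources used here, and neither is whether each library came from a separate mouse, so each p-value reflects only how far these libraries scatter, which may be technical. HIF-2α, encoded by Epas1, is an oxygen-regulated transcription factor subunit. Values are TPM, in which reads are divided by transcript length and every library adds up to the same sum; levels of different genes can be set side by side, but the number of reads behind a value is unknown.

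The cycle turns toxic ammonia into urea. Inside mitochondria, carbamoyl phosphate is made from ammonia and bicarbonate and joined to ornithine; in the cytosol the product takes up a second nitrogen from aspartate and is cleaved to urea and ornithine. Hepatocytes near the portal vein carry most of this work, and cells around the central vein turn the ammonia that escapes into glutamine.

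No gene of the group differed detectably between the labels. None of the 10 was called higher and none lower (limma on log2(TPM + 1), Benjamini-Hochberg adjusted p below 0.05 over 11440 tested genes). Over all tested genes 0% were called higher and 0.00874% lower, which is 1 gene, so a count of 0 among 10 is near the background. At an unadjusted p below 0.05 there were also 0 of the 10, beside 3.15% of all tested genes. In none of the 10 did the KO and WT values separate, as they did in 9.08% of all tested genes. The median log2 difference of the 10 genes, KO minus WT, was -0.011, with 4 above 0 and 6 below, against a median of +0.095 over all tested genes, of which 74.5% were above 0. When libraries were divided by their median ratios, which put the median of all genes at 0.0014, the median of the 10 was -0.12, with 2 above 0 and 8 below, against 50.4% of all genes above 0. The spread between libraries of one label had a median SD of 0.26 on the log2(TPM + 1) scale for these genes, against 0.19 for the 3018 tested genes at a mean of 20 TPM or more. Epas1, the targeted gene, was not lower under the KO label but higher, at a log2 difference of +0.34, and was not called (limma, adjusted p = 0.993). It stood at 26.6, 35.1 and 29.4 TPM under the KO label and at 23.8, 26.0 and 21.0 TPM under the WT label. Every KO value lay above every WT value, and the labels separated in 9.08% of all tested genes. The knockout is labelled as limited to hepatocytes, while TPM of a whole gene in whole liver counts all cells and any part of the transcript. These values therefore cannot check the labels, and directions here are between libraries as labelled.

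**Figure D1:**
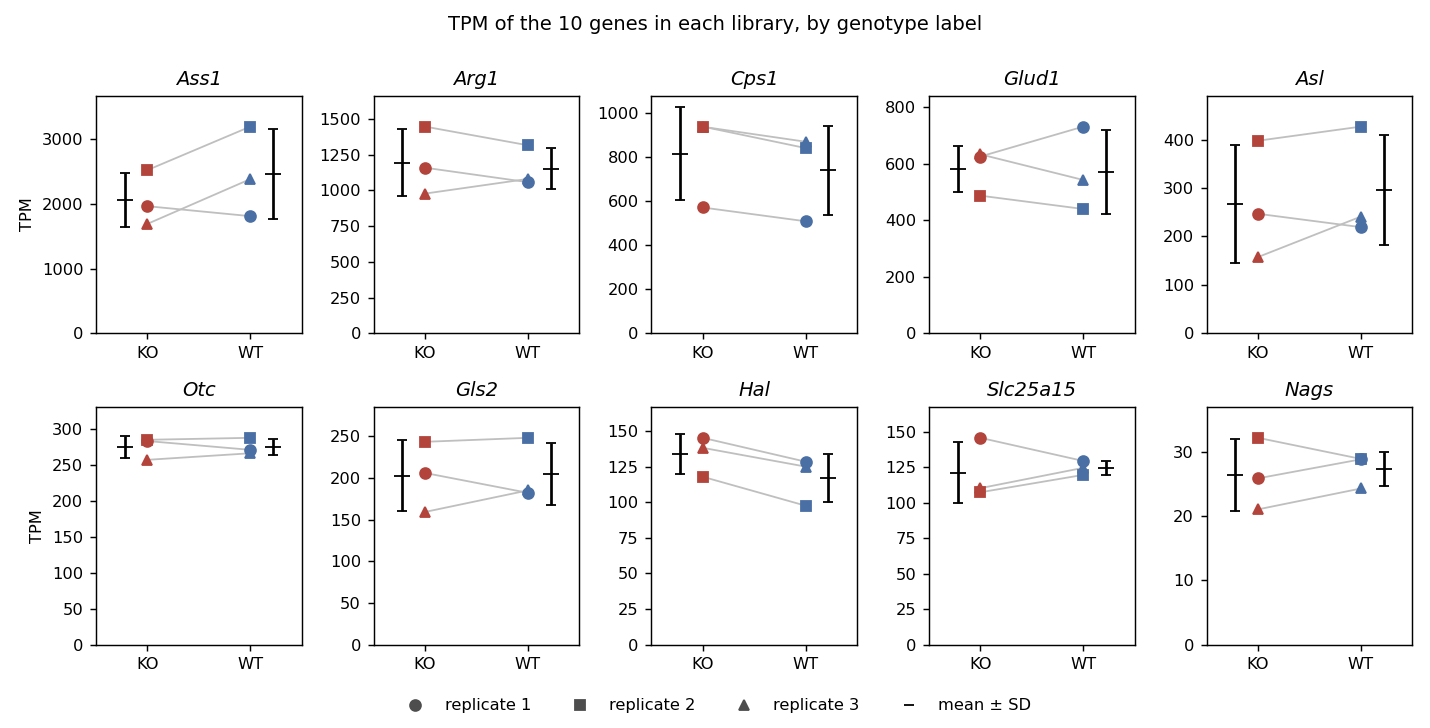
Each panel plots the TPM of one gene, from the most to the least abundant, in the 3 libraries labelled KO (red, left) and the 3 labelled WT (blue, right); grey lines join libraries with the same replicate number, and black bars give the mean ± SD of each label (n = 3). The values of the labels overlap in every panel, and Otc is the flattest, between 257 and 288 TPM.

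Promoter sequence was available in RefSeq (GRCm38.p6, the mm10 assembly) for 6 of the 10 genes, as 7 windows of 300 bases around a start site. HIF proteins are known to bind the core ACGTG or GCGTG. Either core, on either strand, lay in 5 of the 7 windows, against 43.8% of 32851 windows over the genome. Slc25a15 was the only gene with more than a single window, and each of its windows held a core. The windows shown are those of the most abundant gene, of the gene with the highest difference and of the least variable gene, written 5′ to 3′ on the plus strand, with the letters ACGTG and GCGTG, or their reverse complements, in capitals. They are Ass1 at chr2:31470020-31470319, Hal at chr10:93488518-93488817 and Otc at chrX:10252055-10252354.
Ass1: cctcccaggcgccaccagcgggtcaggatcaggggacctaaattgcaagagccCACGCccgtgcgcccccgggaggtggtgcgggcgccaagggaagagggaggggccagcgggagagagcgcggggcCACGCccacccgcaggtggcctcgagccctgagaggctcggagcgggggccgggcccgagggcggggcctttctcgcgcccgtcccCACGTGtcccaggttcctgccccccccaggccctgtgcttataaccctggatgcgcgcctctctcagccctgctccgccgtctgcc
Hal: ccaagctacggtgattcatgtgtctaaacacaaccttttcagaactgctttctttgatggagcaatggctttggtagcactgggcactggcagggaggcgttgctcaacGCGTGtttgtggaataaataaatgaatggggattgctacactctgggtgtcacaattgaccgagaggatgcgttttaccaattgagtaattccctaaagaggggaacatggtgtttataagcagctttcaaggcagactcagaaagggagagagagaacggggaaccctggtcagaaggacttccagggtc
Otc: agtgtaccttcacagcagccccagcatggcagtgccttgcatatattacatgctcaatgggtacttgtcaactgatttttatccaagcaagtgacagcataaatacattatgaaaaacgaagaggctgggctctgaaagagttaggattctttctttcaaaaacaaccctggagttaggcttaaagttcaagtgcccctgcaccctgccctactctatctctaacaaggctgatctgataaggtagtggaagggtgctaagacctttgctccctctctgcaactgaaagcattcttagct

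The Ass1 window holds 4 matches, a pair of which overlap on opposite strands in the palindrome CACGTG that starts 36 bases before the start site. CACGTG was present in 2 of the 7 windows, from Ass1 and Slc25a15, against 7.15% of all windows. The Hal window holds 1 match, 141 bases before the start site, and the Otc window 0. The Ass1 window is also the richest of the 3 shown in G and C, with 74.0%, against 47.7% for Hal and 44.3% for Otc. These matches describe letters in the sequence and say nothing of binding.

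Within mitochondria, the first committed step was carried by Cps1 (ENSMUSG00000025991; mm10 chromosome 1, 67123026 to 67231259, plus strand), the carbamoyl phosphate synthetase that fixes ammonia. Its TPM values were 571.5, 939 and 938 under the KO label and 509, 841 and 870.2 under the WT label. The low library was number 1 under both labels, and the KO and WT values overlapped widely. The means were 816 ± 212 TPM in KO and 740.1 ± 201 TPM in WT (SD, n = 3 each), with a log2(TPM + 1) difference of +0.14 and a 95% interval of -0.51 to +0.80 (limma, adjusted p = 0.993). In libraries of the same number Cps1 was higher under the KO label each time, by +0.17, +0.16 and +0.11 on the log2(TPM + 1) scale. Among the 10, only Cps1 and Hal had the KO library on top in each of the 3 pairs of equal number, and 0 had the WT library on top in all 3; the shares of all tested genes were 26.9% and 4.29%. After median-ratio scaling the Cps1 difference was +0.037 and its pairs stood at +0.13, +0.025 and -0.045, and the third pair of Hal also turned below 0, at -0.0082.

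Nags (ENSMUSG00000048217; chromosome 11, 102145513 to 102149477, plus strand) makes N-acetylglutamate, the obligatory activator of CPS1. It was by far the least abundant of the group, at 25.9, 32.2 and 21.0 TPM in KO and 28.8, 28.9 and 24.3 TPM in WT. Nags TPM was between 0.0224 and 0.0453 of Cps1 TPM in the KO libraries and between 0.0279 and 0.0567 in the WT libraries, highest in number 1 of each label, where Cps1 was low. An antisense gene, Gm11586, overlaps Nags at a mean of 2.43 TPM, and without a stated strand setting their reads cannot be told apart. The log2 difference of Nags was -0.066, with an interval of -0.47 to +0.34.

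Otc (ENSMUSG00000031173; chromosome X, 10252305 to 10321024, plus strand), ornithine transcarbamylase, joins ornithine to carbamoyl phosphate. Its values were 284, 285 and 257 TPM in KO and 271, 288 and 267 TPM in WT. No other gene of the 10 varied so little, with a highest library only 1.12 times its lowest. The means were 275 ± 15.6 TPM in KO and 275 ± 11.3 TPM in WT (SD, n = 3 each), and the interval of the log2 difference, -0.27 to +0.27, was the narrowest of the group.

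Slc25a15 (ENSMUSG00000031482; chromosome 8, 22375551 to 22398597, minus strand), the carrier that brings ornithine into mitochondria, was at 146, 107 and 110.2 TPM in KO and 129, 120 and 125 TPM in WT. The WT libraries lay inside the range of the KO libraries. Its log2 difference was -0.053 with an interval of -0.40 to +0.30. The related carrier gene Slc25a2 was listed at 0 in all libraries but WT replicate 2, where it stood at 0.089 TPM.

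In the cytosol, Ass1 (ENSMUSG00000076441; chromosome 2, 31470207 to 31520672, plus strand), the argininosuccinate synthetase that adds the aspartate nitrogen, was the most abundant of the 10, ranking between 46 and 65 among all genes of a library. It was at 1962, 2519.5 and 1689 TPM in KO and at 1809, 3191.5 and 2381 TPM in WT. Replicate 2 was the highest under both labels and the ranges overlapped. With means of 2057 ± 423 TPM in KO and 2460.5 ± 695 TPM in WT (SD, n = 3 each), Ass1 had the lowest log2 difference of the group, -0.24, with an interval of -0.82 to +0.34 (limma, adjusted p = 0.993).

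Asl (ENSMUSG00000025533; chromosome 5, 130011258 to 130029247, minus strand) encodes argininosuccinate lyase, which releases arginine and fumarate. It varied most between libraries, at 247, 398 and 157 TPM in KO and 219, 427 and 241 TPM in WT. The highest library, WT replicate 2, held 2.71 times the TPM of the lowest, KO replicate 3, and replicate 2 was the highest under both labels. The log2 difference was -0.18 and its interval, -1.06 to +0.70, was the only one of the 10 that reached a log2 difference of 1 in size.

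Arg1 (ENSMUSG00000019987; chromosome 10, 24915221 to 24927484, minus strand), the liver arginase that splits arginine into urea and ornithine, was at 1158, 1445 and 977 TPM in KO and at 1057, 1314 and 1079 TPM in WT. Both the highest and the lowest library were labelled KO. Its log2 difference was +0.041 (interval -0.39 to +0.47). Arg2, the mitochondrial arginase, was below 1 TPM everywhere, at 0.200, 0.344 and 0.655 TPM in KO and 0.282, 0.042 and 0.391 TPM in WT.

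Among the genes that deliver ammonia or glutamate, Glud1 (ENSMUSG00000021794; chromosome 14, 34310727 to 34345265, plus strand), mitochondrial glutamate dehydrogenase, was at 625, 487 and 633 TPM in KO and 731, 439 and 542 TPM in WT. Here replicate 2 was the lowest under both labels, the reverse of Ass1 and Asl. The log2 difference was +0.048 with an interval of -0.45 to +0.55.

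Gls2 (ENSMUSG00000044005; chromosome 10, 128194457 to 128210004, plus strand), the liver glutaminase of periportal cells, was at 206, 244 and 159 TPM in KO and 182, 248 and 185 TPM in WT. The WT values fell within the KO range except for replicate 2, the highest of all. Its log2 difference was -0.023 (interval -0.49 to +0.44). Spryd4, on the opposite strand and overlapping Gls2, had a mean of 15.8 TPM. Shared reads may enter either value, and how many do was not measured.

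Hal (ENSMUSG00000020017; chromosome 10, 93488768 to 93519304, plus strand), histidine ammonia-lyase, frees ammonia from histidine. It was at 145, 118 and 138 TPM in KO and 129, 97.6 and 125 TPM in WT. KO replicate 2 lay below both WT replicates 1 and 3, so the labels overlapped. With means of 134 ± 14.2 TPM in KO and 117 ± 17.0 TPM in WT (SD, n = 3 each), Hal had the highest log2 difference of the 10, +0.20, with an interval of -0.16 to +0.56 (limma, adjusted p = 0.993). A fit blocked on replicate number gave an interval of 0.0036 to +0.39 and an unadjusted limma p of 0.0471, a level that 5.26% of all tested genes reached in the same direction; the adjusted p was 0.724. Adding median-ratio scaling to the block brought the difference to +0.090, with an interval of -0.11 to +0.29.

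**Figure D2:**
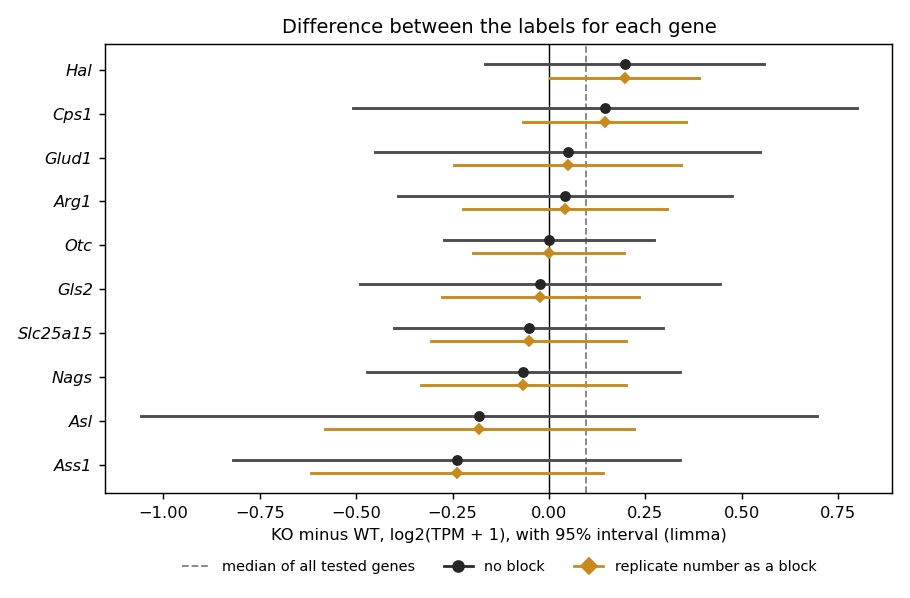
Points give the difference KO minus WT on the log2(TPM + 1) scale for each gene and bars its 95% limma interval, without a block (black) and with the replicate number as a block (orange); the dashed line is the median of all tested genes, +0.095. All 10 intervals without a block hold 0, from Hal at +0.20 down to Ass1 at -0.24.

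Ordered by mean TPM over the 6 libraries, the genes ran Ass1, Arg1, Cps1, Glud1, Asl, Otc, Gls2, Hal, Slc25a15 and Nags, from 2259 to 26.8 TPM. Among neighbours in this order, Cps1 and Glud1, Asl and Otc, and Hal and Slc25a15 overlapped: Cps1 was above Glud1 in 4 of 6 libraries, Asl above Otc in 2, and Hal above Slc25a15 in 3. The other 6 neighbouring pairs had ranges that did not overlap. The 5 enzymes of the cycle proper, Cps1, Otc, Ass1, Asl and Arg1, made up 0.422%, 0.559% and 0.402% of all TPM in the KO libraries and 0.386%, 0.606% and 0.484% in the WT libraries. These shares overlapped, with replicate 2 the highest of each label.

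Within each label, the libraries differed by number in a way that most of the 10 genes shared between KO and WT. Replicate 2 was the highest library of both labels for Ass1, Asl, Arg1, Otc, Nags and Gls2, which is 6 of the 10 genes, against 19.1% of all tested genes. It was the lowest of both labels for Glud1, Hal and Slc25a15, 3 of the 10, against 10.4% of all tested genes. Some of these places rest on near ties. Replicates 2 and 1 stood at 28.89 and 28.83 TPM for Nags in WT and at 285.4 and 283.6 TPM for Otc in KO. For Slc25a15 in KO, replicates 2 and 3 stood at 107.3 and 110.2 TPM. Replicate 1 was the highest of both labels for 2 of the 10, against 21.2% of all tested genes. Replicate 3 was the lowest of both for 2 of the 10, against 35.2%. Cps1 was the exception to both patterns of replicate 2: replicate 1 was its lowest library under both labels, a pattern held by 4.89% of tested genes. Replicates 2 and 3 of Cps1 were close, at 939.0 and 938.2 TPM in KO and at 841.3 and 870.2 TPM in WT. Like the 4 enzymes that follow it in the cycle, Cps1 was above its mean in both libraries numbered 2. It departed from them in KO, where their lowest library was replicate 3. The ratio of Cps1 to Otc was 2.01, 3.29 and 3.64 in KO and 1.87, 2.92 and 3.26 in WT. That ratio was lowest in number 1 of each label. The ratio of Ass1 to Asl was 7.95, 6.34 and 10.7 in KO and 8.25, 7.48 and 9.88 in WT, lowest in number 2 of each label. The labels do not say what a number stands for, and what set these profiles was not tested. The share of TPM from mitochondrially encoded genes, which moves every other TPM value, was 21.9%, 21.6% and 16.2% in KO and 18.8%, 24.5% and 20.9% in WT. Its part in these profiles was not tested.

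**Figure D3:**
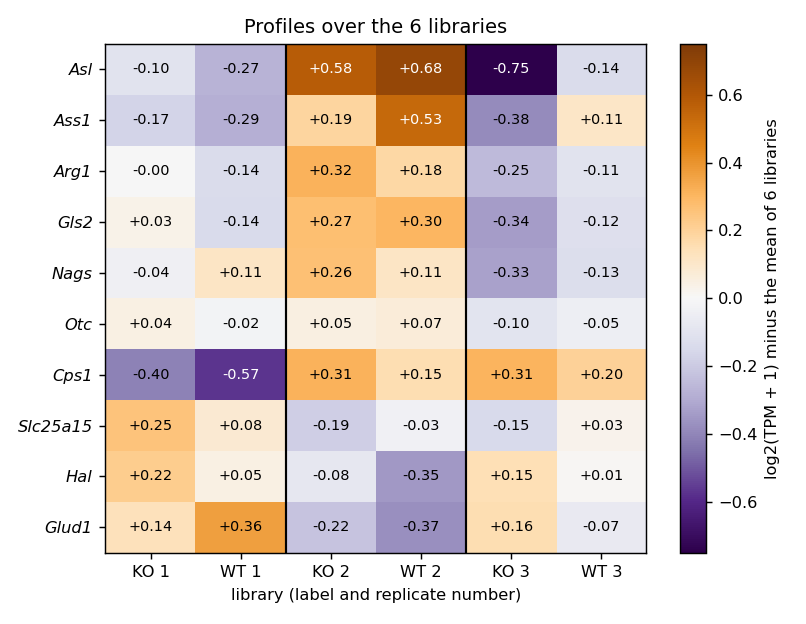
Each cell gives log2(TPM + 1) of a gene in one library minus its mean over the 6 libraries, with libraries of the same replicate number side by side, KO left of WT. Asl, Ass1, Arg1, Gls2, Nags, Otc and Cps1 are above their mean in both libraries numbered 2, and Glud1, Hal and Slc25a15 are below it there. Cps1 is below its mean only in the libraries numbered 1, by -0.40 in KO and -0.57 in WT.

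For the 3 genes that varied most, the other genes with the nearest profile over the 6 libraries were looked up among 6652 candidates, by the root mean square distance between mean-centred log2 values. Nearest to Asl was Akr1d1, the steroid 5β-reductase of bile acid synthesis, with 106, 149 and 70.5 TPM in KO and 90.8, 176 and 99.9 TPM in WT and a distance of 0.078, followed by Ggt6 (0.088) and Ropn1l (0.110). Nearest to Ass1 was Cyp8b1, the sterol 12α-hydroxylase that sets cholic acid output, with 88.8, 118 and 71.9 TPM in KO and 91.8, 141 and 108 TPM in WT and a distance of 0.078, followed by Aldh1l1 (0.1002), a folate enzyme, and Desi2 (0.103). Within the group, the distance between Ass1 and Asl was 0.2496 and that between Ass1 and Gls2 0.172. The nearest genes to Cps1 were farther from it, Irf2bpl at 0.124, Rpl22l1 at 0.130 and Ogfrl1 at 0.131. Of 6 libraries, 3 share each label, and all share the TPM scale, so such likeness is a description of these libraries.

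Ratios within a library do not depend on its scaling. Of 13 ratios between genes of linked steps, 2 did not overlap between the labels; these are the 2 that hold Oat, whose own TPM values do not overlap either, as in 9.08% of single tested genes. Oat, ornithine aminotransferase of pericentral cells, which takes ornithine out of the cycle, was at 447, 382 and 368 TPM in KO and 538, 655 and 555 TPM in WT. Its log2 difference was -0.54 (interval -0.88 to -0.21), and it was not called (limma, adjusted p = 0.993). Relative to Otc in the same library, Oat was at 1.58, 1.34 and 1.43 in KO and 1.98, 2.27 and 2.08 in WT, without overlap. Arg1 to Oat, the enzyme that makes ornithine against the one that removes it, was 2.59, 3.78 and 2.65 in KO and 1.97, 2.01 and 1.94 in WT, again without overlap. Oat was known from an earlier look at these data to have a small p, so these ratios restate it and are given with no test. By contrast the ratio of Hal to Amdhd1, a later enzyme of histidine breakdown, was 1.26, 1.47 and 1.24 in KO and 1.32, 1.39 and 1.42 in WT.

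**Figure D4:**
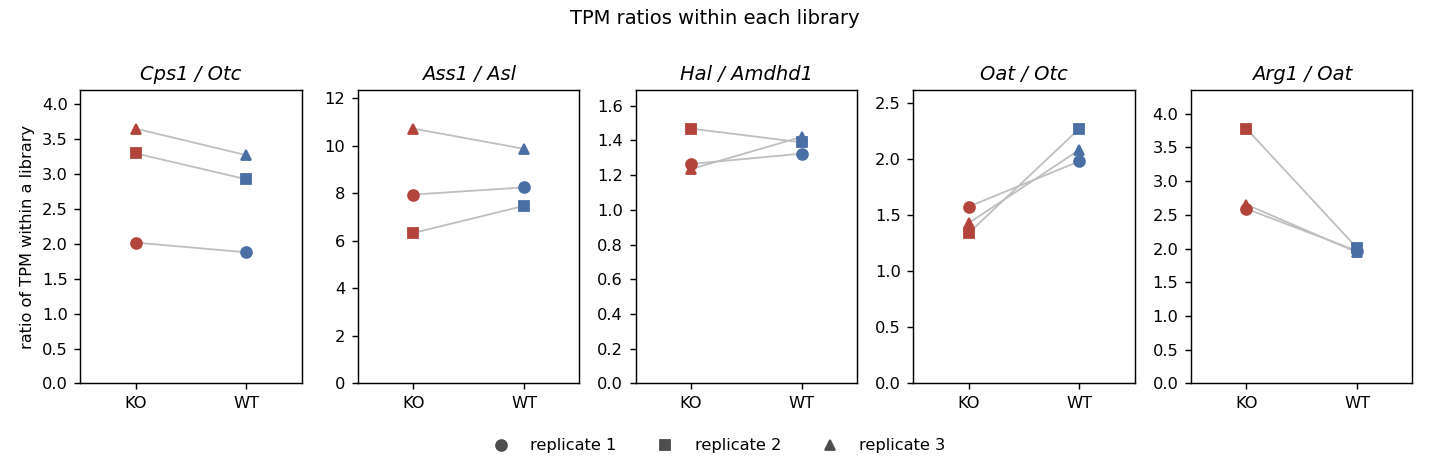
Each panel gives the ratio of the TPM of a pair of genes within one library, KO libraries left and WT libraries right, with lines joining the same replicate number. Cps1 to Otc, Ass1 to Asl and Hal to Amdhd1 overlap between the labels; Oat to Otc reaches at most 1.58 in KO and at least 1.98 in WT, and Arg1 to Oat is at least 2.59 in KO and at most 2.01 in WT.

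Wider lists of nitrogen genes gave 0 calls in either direction with limma. Their counts are to be read beside all tested genes, of which 74.5% were above 0, or 50.4% after median-ratio scaling, and 3.15% had an unadjusted p below 0.05. Of 10 tested genes of arginine, ornithine and polyamine metabolism, 6 had a difference above 0 and 4 below, with a median of +0.069 and 1 (Oat) at an unadjusted p below 0.05; after median-ratio scaling 5 were above and 5 below. Besides Oat, the spermine synthase gene Sms was at 3.02, 2.96 and 2.15 TPM in KO and 2.001, 2.28 and 1.18 TPM in WT, and Slc7a2, a hepatic importer of arginine, at 108, 114 and 97.8 TPM in KO and 74.4, 96.3 and 102 TPM in WT. The labels overlapped for both genes. Amd1, which starts polyamine chain extension, had a mean of 23.1 TPM in KO and 20.7 TPM in WT.

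Of 19 tested genes of glutamate, aspartate and ammonia handling, 8 were above 0 and 11 below, with a median of -0.042 and 2 (Aspg and Slc1a2) at an unadjusted p below 0.05; after median-ratio scaling 2 were above and 17 below. Aspg, which encodes a protein with asparaginase activity, was at 72.9, 71.2 and 63.6 TPM in KO and 55.6, 56.5 and 44.8 TPM in WT, without overlap, at a log2 difference of +0.40 (adjusted p = 0.993). Glul, the glutamine synthetase of the last hepatocytes before the central vein, was at 421, 422 and 329 TPM in KO and 519, 445 and 426 TPM in WT, also without overlap, at -0.25 (interval -0.61 to +0.11). Slc1a2, a glutamate importer of the same cells, had a mean of 40.3 ± 3.41 TPM in KO and 48.9 ± 1.06 TPM in WT (SD, n = 3 each).

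The list of histidine, serine, threonine and glycine breakdown had 13 tested genes, 9 above 0 and 4 below, a median of +0.061 and 0 at an unadjusted p below 0.05; after median-ratio scaling 4 were above and 9 below. Amdhd1, which acts after Hal, was at 115, 80.3 and 112 TPM in KO and 97.1, 70.2 and 88.0 TPM in WT, with replicate 2 lowest under both labels and a log2 difference of +0.26. Ftcd, which closes histidine breakdown, averaged 161 TPM in KO and 149 TPM in WT. Sdsl averaged 5.91 TPM in KO and 5.16 TPM in WT, and Agxt, the peroxisomal alanine-glyoxylate aminotransferase, 166 TPM in KO and 141 TPM in WT. None of these 4 genes separated the labels.

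Of 8 tested genes of amino acid uptake, 6 were above 0 and 2 below (median +0.061), with 0 at an unadjusted p below 0.05; after median-ratio scaling 3 were above and 5 below. Slc38a2, an amino acid importer induced by starvation for amino acids, was at 55.2, 40.7 and 63.8 TPM in KO and 52.2, 31.6 and 40.1 TPM in WT, and the neutral amino acid transporter gene Slc1a4 at 1.31, 0.735 and 0.580 TPM in KO and 1.34, 1.204 and 1.33 TPM in WT. Slc43a1 averaged 4.75 TPM in KO and 3.79 TPM in WT, and the glycine transporter gene Slc6a9 9.07 TPM in KO and 8.59 TPM in WT. The labels overlapped for all 4 of these transporter genes.

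Genes known to regulate the urea cycle numbered 17 tested, 13 above 0 and 4 below, with a median of +0.096 beside +0.095 for all genes and 1 (Crtc2) at an unadjusted p below 0.05. After median-ratio scaling 7 of the 17 were above 0 and 10 below. Crtc2, a coactivator of CREB in the response to glucagon, was at 12.1, 9.90 and 11.2 TPM in KO and 7.91, 8.95 and 8.12 TPM in WT, without overlap, and was not called (log2 difference +0.37, adjusted p = 0.993). Creb1 itself was at 3.35, 3.26 and 3.66 TPM in KO and 2.82, 3.16 and 2.65 TPM in WT, also without overlap and not called. The pioneer factor gene Foxa2 was at 10.9, 20.8 and 28.9 TPM in KO and 7.91, 15.6 and 11.7 TPM in WT. Foxa1 was at 5.88, 7.88 and 13.2 TPM in KO and 6.06, 6.89 and 5.95 TPM in WT. Both were highest in KO replicate 3, and the labels overlapped for both.

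Markers of liver zones were also set beside the group, the pericentral list holding Oat, Glul, Slc1a2 and Rhbg as well. The list of other periportal genes also shares genes with the list of histidine, serine, threonine and glycine breakdown. Of 18 other periportal genes, 12 were above 0 and 6 below, with a median of +0.13, and of 20 pericentral genes 2 were above 0 and 18 below, with a median of -0.17. Neither list had a call with limma; at an unadjusted p below 0.05 there were 1 (Hsd17b6) and 2 (Oat and Slc1a2), beside 3.15% of all tested genes. With 74.5% of all tested genes above 0, the periportal count lies near the background; after median-ratio scaling, 10 of 17 periportal and 1 of 20 pericentral genes were above 0, against 50.4% of all genes. Among periportal genes, the hydroxysteroid dehydrogenase gene Hsd17b6 was at 330, 139 and 118 TPM in KO and 79.2, 67.8 and 80.5 TPM in WT, and Cyp2f2, a widely used periportal marker, at 698, 690.5 and 722 TPM in KO and 541, 466 and 662 TPM in WT. The protease gene Ctsc averaged 63.0 TPM in KO and 44.0 TPM in WT, and Igfbp2, which binds insulin-like growth factors, 283 TPM in KO and 207 TPM in WT. The labels separated for Hsd17b6 and Cyp2f2 and overlapped for Ctsc and Igfbp2. Pericentral Lgr5, an R-spondin receptor, averaged 1.23 TPM in KO and 1.78 TPM in WT, and Lhpp 27.0 TPM in KO and 33.7 TPM in WT. The labels separated for Lgr5, as for pericentral Oat, Glul and Slc1a2, and overlapped for Lhpp. Of all tested genes, 9.08% separated the labels. The 10 nitrogen genes, at a median of -0.011, lay between these lists. Bulk RNA cannot separate fewer cells of a zone from less RNA per cell.

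**Figure D5:**
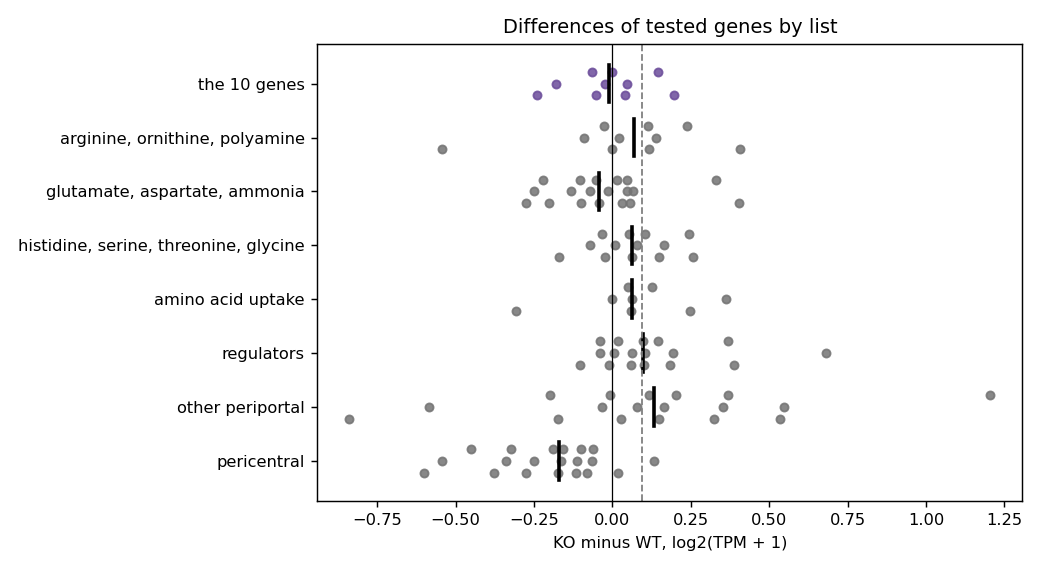
Each point is the difference KO minus WT on the log2(TPM + 1) scale of one tested gene, by list, with the 10 nitrogen genes in purple; black ticks are list medians and the dashed line is the median of all tested genes, +0.095. The 10 genes lie between -0.24 and +0.20, while single genes of the other periportal list reach from -0.84 to +1.21.

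The tissue label was checked against markers of the cells that can express these genes. Of 10 hepatocyte markers, 9 were matched in the table, and their summed TPM was 60182 to 75334 in KO and 51644 to 60273 in WT. Most of this sum was Alb, at 37937, 48972 and 31388 TPM in KO and 28784, 38867.5 and 31387.5 TPM in WT. Small intestine also expresses Cps1 and Otc: of its 7 markers, Lypd8, Lct, Alpi and Cdh17 were listed at 0 in all libraries, Muc13 and Vil1 reached at most 0.165 TPM, and Fabp2 was at 236, 170 and 98.3 TPM in KO and 158, 193 and 115 TPM in WT. Kidney, a site of Ass1 and Asl, was represented by 5 markers summing to at most 0.05 TPM. Macrophages can express Arg1, and their 8 markers summed to 256 to 272 TPM in KO and 205 to 286 TPM in WT. Sums of cholangiocyte, stellate and endothelial markers were 52.9 to 67.7, 159 to 179 and 114 to 129.7 TPM in KO, and 42.1 to 54.3, 131 to 153 and 109 to 118 TPM in WT. Nearly all of the cholangiocyte sum was Tm4sf4, at 64.4, 48.8 and 56.1 TPM in KO and 51.5, 41.2 and 38.9 TPM in WT, while the other 7 markers, Krt19 and Epcam among them, reached at most 1.56 TPM. Lymphocyte and neutrophil markers summed to 6.16 to 6.80 TPM in KO and 2.20 to 10.1 TPM in WT. Of the tested stellate markers 9 of 9 were above 0, 4 of them at an unadjusted limma p below 0.05 and 0 called, and of the hepatocyte markers 8 of 9, beside 74.5% of all tested genes above 0 and 3.15% at such a p. After median-ratio scaling 7 of 9 were above 0 in each list. The part of these cells in the values of the 10 genes was not tested. The 20 most abundant genes of the table took 40.7% to 46.8% of a library, and 11013 to 11708 genes reached 1 TPM in a library.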

How the data were processed

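Total liver RNA came from TRIzol extraction and went into NEB libraries, per the labels' protocols. The authors deposited a table of TPM for 54600 genes and assembled loci in 6 libraries (3 KO, 3 WT); the submitters' processing notes name mm10 and, with no version, role or order, limma, featureCounts, fastp, DESeq2 and HISAT2. Strand and shared-read settings are not given in the sources used here. Deposited TPM keeps no read depth, so no count model or counting interval was used.

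Of 54323 Ensembl identifiers, 51492 matched a symbol in GENCODE M21 (GRCm38, the assembly of mm10), which gave the coordinates. Of the 10 rows, 5 join an assembled locus to the Ensembl gene. Genes at 1 TPM or more in at least 3 libraries (11440) entered a two-sided limma test (version 3.58.1, R 4.3.3) of all 6 libraries with a mean-variance trend, at a Benjamini-Hochberg threshold of 0.05. Values were taken as log2(TPM + 1), which understates changes of low genes. The step was tested on simulated data with independent errors in each library. That setting lacks the likeness between same-numbered libraries given below, so it does not check the test under such likeness.

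Deviations from group means of same-numbered libraries correlated at 0.16, 0.41 and 0.38 over genes. Those of differently numbered libraries correlated between -0.37 and 0.026. These correlations are not independent of each other, because the deviations of a label are taken from its own mean. The numbers were treated as a possible pairing, found in the data and not stated by the labels. A replicate block was an alternative, beside other pseudocounts, filters, scalings, no trend, and leaving out each library. Named genes are the 10; Epas1; Oat, Glul, Arg2 and Slc25a2; up to 4 genes of each other nitrogen, regulator and zonation list with the smallest p (marker lists are given as sums); and nearest profiles; 1 further gene of the rule is not reported here. Gm11586 and Spryd4 are named for overlap and Amdhd1 for its ratio; individual markers of cell types were named after their values were seen. The members and lists were chosen with earlier results of these data known.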

Additional observations from a re-analysis of the deposited data

How the results depend on the processing

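Under all 15 alternatives none of the 10 genes was called in either direction, also with the replicate block (0 higher, 0 lower), and their adjusted p ran from 0.724 to 0.9999. Of 150 differences recomputed, 128 kept their sign; those of Ass1 and Hal kept it under all 15. Median-ratio scaling, with or without the replicate block, turned Arg1 to -0.066 and Glud1 to -0.059; rescaling TPM after dropping mitochondrial genes and the top 20 turned them to -0.025 and -0.019. Leaving out 1 library moved Cps1 between -0.10 and +0.38, Asl between -0.52 and +0.15, Arg1 between -0.11 and +0.18, Otc between -0.026 and +0.048, Nags between -0.22 and +0.080, Slc25a15 between -0.19 and +0.026, Gls2 between -0.16 and +0.14, Glud1 between -0.12 and +0.24, Ass1 between -0.44 and -0.033 and Hal between +0.072 and +0.28. The median of the 10 ran from -0.066 to +0.064 when 1 library was left out; it was -0.12 after median-ratio scaling and -0.078 after dropping abundant and mitochondrial genes. Asl, Gls2 and Otc turned positive without KO replicate 3 or without WT replicate 2, and Cps1 negative without WT replicate 1. The block changed no call. The number of libraries limits precision: the intervals given are unadjusted, and Oat and Hsd17b6, whose intervals exclude 0, were not called either.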
